A study of Rattus norvegicus with 6 samples.

Results

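Unnamed assembled loci are stretches of the rat genome from which RNA was read in RUCA-I cells but to which the deposited gene table attaches no gene symbol. They were chosen from the rows that the authors tested by 3 conditions, namely a missing symbol, a locus of at least 300 bp from start to end, and a mean of the wild-type (WT) and miR-203 knockout (KO) values of at least 1 FPKM. FPKM is a level in sequenced fragments, scaled to the length of the transcript and to the number of mapped fragments. The table holds 26751 rows, of which 26459 were tested. A symbol was missing in 7071 rows, of which 6943 were tested and 128 were not. Of the tested unnamed rows 1150 had a locus under 300 bp and another 3876 had a mean under 1 FPKM, which left 1917 members. They make up 27.1% of the unnamed rows and 7.25% of the tested rows. Because the level chose them, levels are given here as a description, without a test.

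RUCA-I is an established epithelial line from an endometrial adenocarcinoma of a Lewis rat, a tumour that arises from the inner lining of the womb. The study compared 3 batches of wild-type cells with 3 miR-203 -/- lines that had been made independently of each other. All cells were untreated and were harvested near confluence, and total RNA was made into stranded libraries. WT samples are batches and KO samples are separate lines, so the loss of the microRNA and the descent of the lines cannot be told apart. The table gives 1 pooled value per group, so no value below has a standard deviation.

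A transcript assembler such as Cufflinks joins overlapping aligned reads into transcripts without needing an annotation, and gives each assembled locus a running number that starts with XLOC. Loci that match no annotated gene can be long non-coding RNAs, extended ends of known genes, processed pseudogenes, transcribed repeats, intronic fragments of precursor RNA, or pieces of a gene that the annotation lacks. In skin miR-203 is known to repress the transcription factor p63, and like other microRNAs it pairs with its targets mainly through the seed. The mature rat sequence is shown because its loss defines the KO group, from RefSeq on the GRCr8 assembly, with the seed, bases 2 to 8, in capitals.
rno-miR-203a-3p: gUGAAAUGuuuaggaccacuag
The coordinates of the loci are on another build, rn6, and their own sequences were not analysed here.

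The cells matched their epithelial label in both groups. Of 8 epithelial markers 7 had a tested row, all at 10 FPKM or more on average, and they summed to 1448 FPKM in WT and 1438 FPKM in KO cells. Leukocyte markers (3 of 5 with a tested row) summed to 39.7 and 30.3 FPKM, of which 1 marker held 31.7 and 23.9 FPKM. Muscle markers (2 of 3) summed to 2.25 and 4.32 FPKM, and the fibroblast marker with a tested row (1 of 5) stood at 1.43 and 1.17 FPKM. None of 4 endothelial markers had a tested row. The part of these differences in the results below was not tested.

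Most members lay at low levels. The mean of both groups had a median of 2.18 FPKM, with 25th and 75th percentiles of 1.34 and 5.91 FPKM and a 95th percentile of 56.9 FPKM. Named rows that passed the same limits on length and mean, 14559 in all, had a median of 8.96 FPKM. A mean of at least 10 FPKM was reached by 354 members, at least 50 FPKM by 108 and at least 100 FPKM by 45. No member was at 0 in either group, and 313 had a value under 1 FPKM in 1 group. The FPKM values of all members summed to 24855.5 in WT and 24720.8 in KO cells, which is 2.68% and 2.38% of the sums over all tested rows. Those sums were 928084 in WT and about 1039620 FPKM in KO cells, so the shares differ mainly through the larger KO total.

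The limits cut through a continuous range. Just under the length limit lay XLOC_006579, XLOC_020063 and XLOC_021664 at 299 bp, with means of 1.01, 645 and 56.6 FPKM, and just inside it lay XLOC_007412, XLOC_008560 and XLOC_013978 at 300 bp, with means of 178, 96.8 and 33.5 FPKM. At the level limit, XLOC_002577, XLOC_024630 and XLOC_015062 had means of 0.998, 0.999 and 0.999 FPKM, and XLOC_013758, XLOC_026504 and XLOC_018599 had means of 1.001, 1.002 and 1.002 FPKM. Short, abundant loci thus stood on each side of the length limit.

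**Figure D1:**
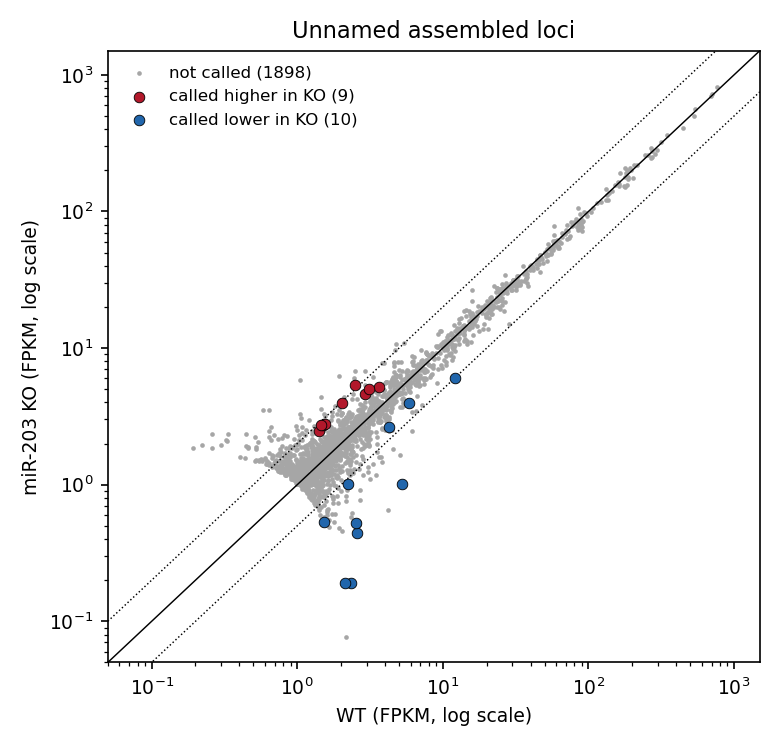
Level of each of the 1917 members in WT (x axis) and miR-203 KO cells (y axis), in FPKM on log scales, 1 pooled value per group. The solid line marks equal values and the dotted lines a ratio of 2. The 19 members called in the authors' deposited table are coloured by direction, and all have a mean between 1.03 and 9.04 FPKM.

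Locus lengths covered a wide range, with a median of 2390 bp and 25th and 75th percentiles of 551 and 16755 bp. The locus that the table lists is not always the row's own. It was shared with other rows for 622 members, since overlapping assemblies were listed under 1 common interval. Members that were the only row at their locus numbered 1295 and had a median length of 799 bp. Another 398 shared the locus with a named row, at a median of 46950 bp, and 224 shared it with unnamed rows alone, at a median of 15956 bp. Only for the members alone at their locus can length be read as that of the assembled transcript unit itself.

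Among the members alone at their locus, the high levels were at short loci. Of 426 members from 300 to under 500 bp, 55 had a mean of at least 50 FPKM, as had 34 of 296 members from 500 to under 1000 bp. Only 6 of 194 members from 1000 to under 2000 bp, 4 of 195 up to 5000 bp, 2 of 142 up to 20000 bp and 1 of 42 longer ones reached that level. The median level itself differed little between the length classes, from 1.99 FPKM (1000 to under 2000 bp) to 2.74 FPKM (5000 to under 20000 bp), except for 4.11 FPKM in the longest class. FPKM divides by transcript length, so a given number of reads weighs more on a short locus, and the part of this scaling in the pattern was not tested.

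**Figure D2:**
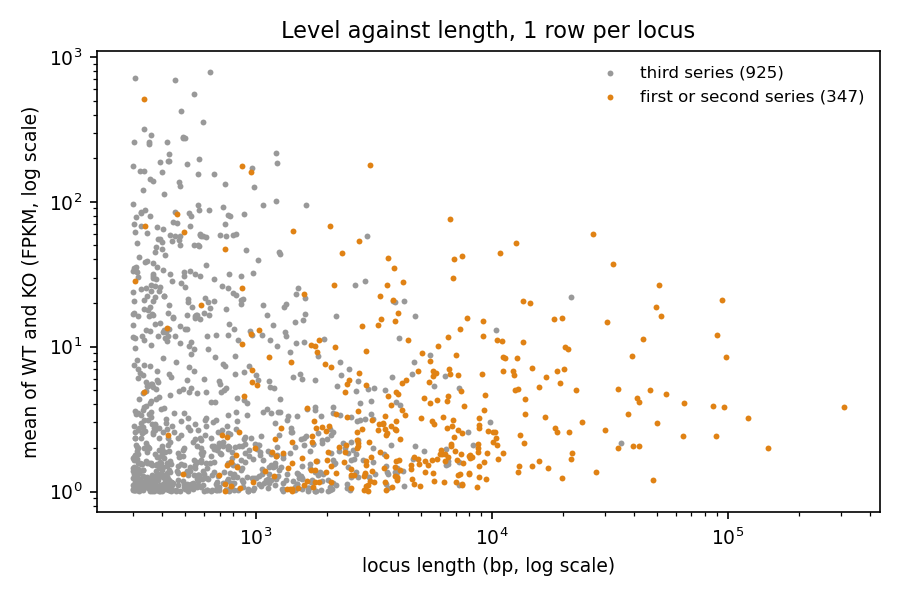
Mean level (y axis, FPKM) against locus length (x axis, bp), both on log scales, for the members that are the only row at their locus and lie on a chromosome. Grey points are rows of the third, mixed series in the table's row order and orange points rows of the first and second; the points above 100 FPKM are nearly all grey and short.

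The order of the rows carries a trace of strand. On all 21 chromosomes (1 to 20 and X) the rows fall into 3 series, each ascending along the chromosome. Where RefSeq gives a strand for a named row, 93.4% of 3833 rows of the first series are on the plus strand and 92.9% of 3802 rows of the second on the minus strand, while the third is mixed, with 53.6% of 5528 on plus. The table itself prints no strand. Unnamed rows make up 6.39% of the first series, 6.65% of the second and 43.4% of the third. Of the members, 263 are in the first series, 260 in the second and 1371 (71.5%) in the third, and 23 are on scaffolds outside the chromosomes. Members of the first series had a median locus of 8616 bp, those of the second 6104 bp and those of the third 1028 bp.

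The 10 highest members were short, were each the only row at their locus, and had nearly the same level in both groups, with log2 ratios of KO over WT from −0.12 to 0.13. All log2 ratios given here are log2((KO + 1)/(WT + 1)). XLOC_016770 (chromosome 3, 124014119 to 124014758, 639 bp) stood at 766 FPKM in WT and 817 FPKM in KO cells, 8790 bp from AABR07053749.1 (406 and 428 FPKM). XLOC_010214 (chromosome 16, 41606023 to 41606329) stood at 703 and 728 FPKM and is only 306 bp long. XLOC_021272 (chromosome 6, 37805726 to 37806181) stood at 695 FPKM in both groups. The latter pair lay far above their nearest named rows of the first or second series. These were Aga at 38.5 and 31.9 FPKM, 371934 bp from XLOC_010214, and Mycn at 0.525 and 0.535 FPKM, 417078 bp from XLOC_021272. XLOC_012306 on chromosome 19 (528116 to 528661) stood at 539 and 566 FPKM, 23010 bp from Fam96b (29.8 and 22.03 FPKM). XLOC_011408 on chromosome 18 (15243973 to 15244307), the only one of the 10 outside the third series, stood at 533 and 501 FPKM. The other 5 were XLOC_024625 (444 and 409 FPKM), XLOC_025672 (348 and 361 FPKM), XLOC_024683 (315 and 323 FPKM), XLOC_011045 (295 and 282 FPKM) and XLOC_005906 (267 and 293 FPKM). XLOC_005906 lies 3614 bp past the 3′ end of Ndufb4, a subunit of respiratory complex I, whose own row stood lower, at 28.9 and 27.6 FPKM.

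Over all 45 members of at least 100 FPKM, the log2 ratio ran from −0.25 to 0.22. The authors' deposited table called none of them, beside 1.05% of all tested rows. A count of 0 among 45 is near that share and is not read as a result about these members. Their median locus was 475 bp, 39 were under 1000 bp, 43 were alone at their locus and 41 were in the third series. The most abundant members are thus mostly short single loci at which the groups lay close together.

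The longest loci were shared ones. XLOC_003562 and XLOC_004876 lie in the same interval of 515307 bp on chromosome 10 (72756548 to 73271855) with 5 rows in all. The first stood at 4.58 FPKM in WT and 5.81 FPKM in KO cells, the second at 21.7 and 17.8 FPKM. XLOC_022927 on chromosome 7 has a locus of 499528 bp (1.47 and 1.51 FPKM), and XLOC_025531 (1.27 and 1.36 FPKM) and XLOC_025533 (2.93 and 1.91 FPKM) share 498428 bp on chromosome 9. None was called. The longest locus held by a member alone was that of XLOC_020590, which spans 310918 bp of chromosome 6 (61548874 to 61859792) and stood at 3.04 in WT and 4.58 FPKM in KO cells, for which the authors' deposited table gives q = 0.577. XLOC_020589, before it on the same chromosome (60958645 to 61055257), stood at 3.18 and 4.54 FPKM at q = 0.948 by the authors' deposited table. Both are in the first series and higher in KO cells, and neither passed. XLOC_010768 on chromosome 17, with 121288 bp, stood at 3.84 and 2.57 FPKM without passing, for which the authors' deposited table gives q = 0.757.

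The members as a whole had a ratio near 0 on the log2 scale. Their log2 ratio had a median of 0.02 with quartiles of −0.14 and 0.18, and 54.1% were higher in KO cells. Named rows within the same limits had a median of 0.00 (log2) with quartiles of −0.10 and 0.12, and over all tested rows the median was 0.02. At q under 0.05 the authors' deposited table called 19 members, 9 higher and 10 lower in KO cells. That is 0.991% of the members, beside 1.05% of all tested rows (0.491% higher and 0.556% lower), so the share is near the background. It was 0.547% over all tested unnamed rows (0.302% higher and 0.245% lower), and 1.44% over the named rows within the same limits (0.646% higher and 0.79% lower). No difference between these shares was tested.

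By position in the table, the first series held 10 of the 19 calls (3.80% of its members), the second 1 (0.385%) and the third 8 (0.584%). Among the named rows within the same limits the shares were 2.05%, 1.90% and 0.0491%. The third series thus lay below the first in both sets, while the second was low among the members alone, where it held 1 call. No difference between classes was tested. Members alone at their locus held 17 (1.31%, beside 2.47% of the named rows alone at theirs), those sharing it with unnamed rows 2, and the 398 sharing it with a named row none. None of the 426 members alone at a locus under 500 bp was called, against 2 of 296 in the next class, 2 of 194, 7 of 195, 4 of 142 and 2 of the 42 that reach 20000 bp. The interquartile range of the log2 ratio was 0.37 in the shortest class and between 0.22 and 0.28 in the others. None of the 354 members with a mean of at least 10 FPKM was called, beside 1.05% of all tested rows. The authors' deposited table called 79 of 5229 named rows (1.51%) from 10 to under 50 FPKM and 33 of 1626 (2.03%) above that. In these 2 level classes the median locus was 862 and 498 bp for members but 26548 and 18449 bp for named rows. The part of length in these shares was not tested.

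The 10 lower members fell between 1.48-fold and 12.3-fold with a median of 3.82-fold, as ratios of the deposited FPKM values, and the 9 higher members rose between 1.43-fold and 2.15-fold with a median of 1.80-fold. At least 2-fold ratios of these values were found for 7 of the decreases and 1 of the increases. Of the 7, 5 (XLOC_013036, XLOC_014229, XLOC_014232, XLOC_018037 and XLOC_010501) had a KO value under 1 FPKM and reached the level limit only through their WT value, and the first 3 of them are adjacent rows. No called increase had a WT value under 1 FPKM. The other 5 decreases ran from 1.48-fold to 5.14-fold with a median of 1.99-fold, so the sizes of decreases and increases are given as a description and not compared. The called members had a median level of 2.16 FPKM and a median locus of 3562 bp, the shortest being 605 bp. Distance to a named row of the first or second series exceeded 50 kb for 9 of the 17 that were alone at their locus, and was within 5 kb for 2.

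**Figure D3:**
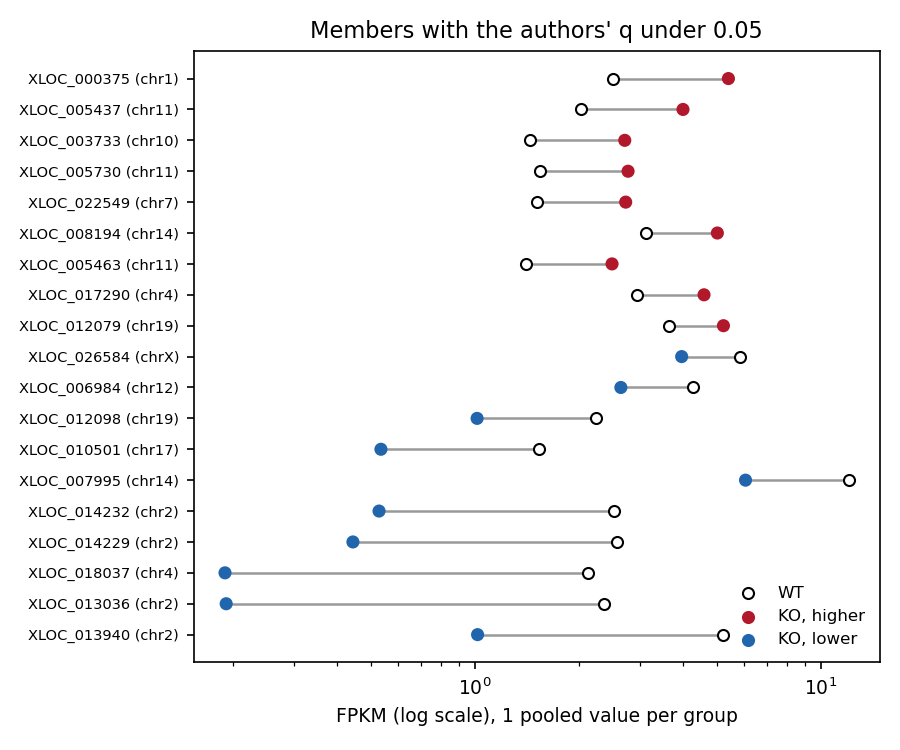
Level of the 19 called members in WT (open circles) and miR-203 KO cells (filled circles), in FPKM on a log scale (x axis), 1 pooled value per group, 1 member per line with its chromosome (y axis). The decreases of XLOC_013036 and XLOC_018037 end near 0.19 FPKM, and no increase exceeds 2.15-fold.

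The largest block of decreases lay on chromosome 2, far from any named gene. XLOC_013036 (194993534 to 194994725) fell from 2.35 FPKM in WT to 0.191 FPKM in KO cells, a 12.3-fold decrease at q = 0.0137 by the authors' deposited table. XLOC_014229, which follows next (194994779 to 194998341), fell from 2.57 to 0.444 FPKM (5.78-fold), and XLOC_014232 (195001327 to 195002126) fell from 2.52 to 0.528 FPKM (4.78-fold), and the authors' deposited table gives q = 0.00756 for each. These 3 members form the only run of separate loci in which every member was called.

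The rows around them were lower as well. Between 194993534 and 195020972, over 27438 bp, the table lists 13 unnamed rows, and all 13 were lower in KO cells. WT values ran from 0.922 to 24.3 FPKM and KO values from 0.134 to 6.62 FPKM, with a median log2 ratio of −1.25 and a range from −1.73 to −0.69. Another row, XLOC_014236 (195005121 to 195006417), was called as well in the authors' deposited table and fell from 1.37 to 0.187 FPKM, but its mean is under 1 FPKM. The highest row, XLOC_014230, with 24.3 in WT and 6.62 FPKM in KO cells, has a locus of only 127 bp and did not pass, at q = 0.953 by the authors' deposited table. No named row was found for 1092186 bp before the block, where S100a10 lies, nor for 533245 bp after it, where Them4, a thioesterase gene, stood at 2.27 and 2.16 FPKM. Neighbouring rows this close can be pieces of 1 transcript, and counting them as separate observations is not possible from the table.

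**Figure D4:**
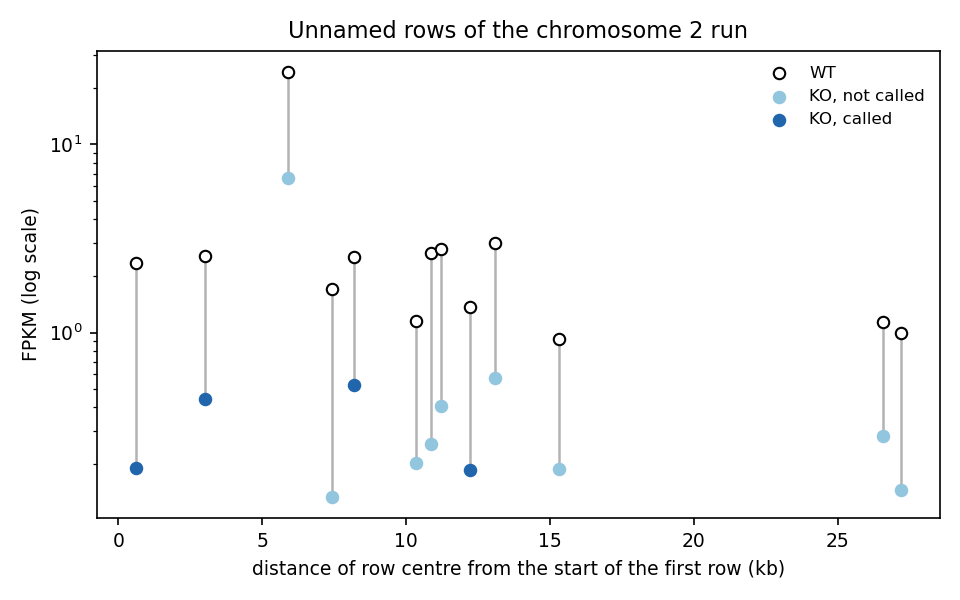
Level of the 13 unnamed rows of the chromosome 2 block in WT (open circles) and miR-203 KO cells (filled circles), in FPKM on a log scale (y axis), against the distance of the row's centre from the start of the first row in kb (x axis). Dark fill marks the 4 rows called in the authors' deposited table; each of the 13 lines runs downward from WT to KO.

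A second decrease on chromosome 2 lay at the end of Zmat3, a zinc finger gene known as a target of p53. XLOC_013940 (118715224 to 118715829) fell from 5.23 to 1.02 FPKM, a 5.14-fold decrease, for which the authors' deposited table gives q = 0.00756. It lies 67 bp past the 3′ end of Zmat3, which is read from the minus strand by its series, and Zmat3 itself stood at 4.72 in WT and 1.22 FPKM in KO cells. The gene's own row did not pass, at q = 0.858 by the authors' deposited table, although its values and those of the unnamed locus beside it are alike in both groups.

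On chromosome 4 a called member lay beyond the 5′ side of Sgce, the gene of epsilon-sarcoglycan, which is known to be imprinted. XLOC_018037 (29806681 to 29808791) fell from 2.12 to 0.190 FPKM, an 11.2-fold decrease, for which the authors' deposited table gives q = 0.00756. The 2 rows before it had values of the same kind, 2.17 in WT and 0.0768 FPKM in KO cells for the member XLOC_017306 (29795615 to 29803051) and 1.08 and 0.0369 FPKM for XLOC_018036, but neither passed, at q = 0.997 for each by the authors' deposited table. These 3 rows span 13176 bp, and rows this close can be pieces of 1 transcript. The KO values of XLOC_017306 and XLOC_018037 were under 1 FPKM, so both members reached the level limit only through their WT values. The first of the 3 rows begins 25709 bp from Sgce, which itself fell from 9.27 to 5.78 FPKM, for which the authors' deposited table gives q = 0.0269. Sgce was the only called gene among the nearest named rows (first or second series) of the 17 called members that were alone at their locus.

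The other 5 decreases stood alone or in mixed surroundings. XLOC_010501 (chromosome 17, 40196129 to 40222389) fell from 1.53 to 0.535 FPKM, and 3 of the 4 unnamed rows in its interval were lower in KO cells. XLOC_012098 (chromosome 19, 56927305 to 56932490) fell from 2.24 to 1.01 FPKM, 71121 bp from Galnt2 (62.99 and 56.4 FPKM), a glycosyltransferase gene that did not pass. XLOC_007995 (chromosome 14, 86965783 to 86970809), the most abundant called member, fell from 12.03 to 6.06 FPKM, a 1.99-fold decrease. XLOC_006984 (chromosome 12, 48750738 to 48753819) fell from 4.27 to 2.64 FPKM, 87649 bp from Ficd (5.85 and 5.15 FPKM). XLOC_026584 (chromosome X, 74347993 to 74350638) fell from 5.85 to 3.96 FPKM, the smallest of the decreases at 1.48-fold, at q = 0.0351 by the authors' deposited table.

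XLOC_026584 lies 62 bp past the 3′ end of LOC680227, whose main row stood at 12.1 in WT and 6.52 FPKM in KO cells without passing, for which the authors' deposited table gives q = 0.737. The row of the opposite series at that locus, Rn50_X_0752.3, stood at 51.3 and 65.8 FPKM. LOC680227 has 2 more rows, in the third series, which were higher in KO cells, XLOC_026582 at 0.359 and 0.510 FPKM and XLOC_026583 at 0.173 and 0.391 FPKM, so the rows around the unnamed locus went both ways.

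The 9 increases were small in size and spread over 7 chromosomes. The largest was XLOC_000375 (chromosome 1, 162331146 to 162334866), which rose from 2.51 to 5.41 FPKM, 2.15-fold at q = 0.0310 by the authors' deposited table. It lies between Kctd21 (0.930 and 1.06 FPKM) and Alg8, a glycosyltransferase gene of the endoplasmic reticulum, with a main row at 18.6 and 19.6 FPKM, and neither gene was called. XLOC_005437 (chromosome 11, 38157777 to 38181841) increased 1.97-fold, from 2.02 to 3.99 FPKM, in the space between Tmprss2, a transmembrane serine protease gene (46.03 and 52.4 FPKM), and Ripk4, a kinase gene of epithelial differentiation (37.7 and 39.1 FPKM). Neither of these genes passed, but Mx2, an interferon-induced GTPase gene on the far side of Tmprss2 (38033855 to 38059725), rose from 2.35 to 4.32 FPKM, for which the authors' deposited table gives q = 0.00756. The unnamed row next to the member, XLOC_005809, stood at 0.516 and 1.12 FPKM without passing.

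On chromosome 7 an increase stood among other unnamed rows. XLOC_022549 (1620900 to 1622638) rose from 1.51 to 2.73 FPKM, 1.80-fold at q = 0.0236 by the authors' deposited table. Over 9591 bp around it lie 5 unnamed rows, of which 4 were higher in KO cells. Between them lie 2 rows of AABR07055337.1, a symbol without a known function, in the third series, which stood at 6.01 and 6.75 FPKM and at 32.9 and 36.9 FPKM and were not called. The member next to it, XLOC_022550, had 2.41 FPKM in WT and 4.62 FPKM in KO cells but missed the threshold, with q = 0.0617 by the authors' deposited table. The last member of that run, XLOC_022554, stood at 4.33 and 3.99 FPKM, so the values of the run did not all go one way.

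Another increase lay near Lif, the gene of leukemia inhibitory factor, a cytokine known for its part in embryo implantation in the uterus. XLOC_008194 (chromosome 14, 84507445 to 84512881) rose from 3.13 to 5.02 FPKM, 1.61-fold at q = 0.0187 by the authors' deposited table. It lies 5151 bp past the 3′ end of Lif and in the other series, and Lif stood at 10.3 and 10.9 FPKM, for which the authors' deposited table gives q = 0.997. XLOC_012079 (chromosome 19, 55042749 to 55083977) rose from 3.65 to 5.23 FPKM, the smallest increase at 1.43-fold, 10641 bp before the 5′ end of Zfpm1, the gene of a GATA cofactor, which stood at 24.5 and 27.9 FPKM without passing.

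The remaining 4 increases, like those above, had no called gene directly beside them. XLOC_003733 (chromosome 10, 105615409 to 105618099) rose from 1.45 to 2.71 FPKM, 14532 bp from Rhbdf2, a rhomboid-like gene with a main row at 37.5 and 38.1 FPKM. XLOC_005730 (chromosome 11, 21733440 to 21735779) rose from 1.54 to 2.77 FPKM and has no named row nearer than 1121209 bp on 1 side (Ncam2) and about 2440850 bp on the other (Mir155). XLOC_005463 (chromosome 11, 52546271 to 52552364) rose from 1.41 to 2.49 FPKM, 237497 bp from Bbx. XLOC_017290 (chromosome 4, 14747129 to 14788564) rose from 2.94 to 4.59 FPKM in an interval of 10 rows, none of the others of which passed. Chromosome 11 thus held 3 of the 9 increases, at 3 distant places.

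Ratios of at least 2-fold on the log2 scale with a pseudocount of 1 were found for 38 members, 22 higher and 16 lower in KO cells. That is 1.98% of the members, beside 1.54% of all tested rows and 1.25% of the named rows within the same limits. Only 5 of the 38 were called. The 13 that were alone at their locus had the opposite balance, with 4 higher and 9 lower. The other 25 shared their locus with other rows, and among those the lowest p in the authors' deposited table was 0.0339 and the median p was 0.383. In 27 of the 38 the lower group was under 1 FPKM, so these members reached the level limit through the group in which they were high. The largest ratio upward belonged to XLOC_005891 (chromosome 11, 61748898 to 61779628), with 1.04 in WT and 5.80 FPKM in KO cells but 7 rows in its interval and q = 0.997 in the authors' deposited table. The largest downward belonged to XLOC_001589 (chromosome 1, 1671334 to 1731257), with 4.21 and 0.655 FPKM, 19 rows in its interval and the same q of 0.997 in the authors' deposited table. Reads shared between overlapping rows are divided by estimate, and the part of this step in such ratios was not tested.

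Of the 38, XLOC_014337 had the same direction as the gene it follows, as had XLOC_013940 with Zmat3 and XLOC_018037 with Sgce. XLOC_014337 is a locus of 417 bp on chromosome 2 (206212143 to 206212560) at 2.04 in WT and 0.461 FPKM in KO cells, at q = 0.413 by the authors' deposited table. With a KO value under 1 FPKM, it reached the level limit only through its WT value. It lies 179 bp past the 3′ end of Olfml3, the gene of a secreted olfactomedin-like protein, which fell from 7.33 to 4.83 FPKM, for which the authors' deposited table gives q = 0.00756.

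Part of the members lay in runs along the chromosomes. A run was taken as at least 3 members on 1 chromosome, each at most 10 kb from the one before. There were 112 such runs with 458 members, 23.9% of all, and their median size was 3. In 44 runs all members lay in 1 shared interval, and 48 runs, with 179 members, held at least 3 separate loci. Among these 48, all members were higher in KO cells in 12 runs and lower in 7, and 2 runs, on chromosomes 2 and 7, held called members.

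The largest runs were fragments of 1 interval. A run of 10 members shares an interval on chromosome X (18440743 to 18457457) with no named row. Its leading row, XLOC_026218 of the second series, stood at 17.8 in WT and 18.7 FPKM in KO cells. The other rows were led by XLOC_026432 (7.47 and 5.46 FPKM), XLOC_026434 (2.65 and 3.26 FPKM), XLOC_026430 (2.40 and 2.34 FPKM), XLOC_026427 (2.26 and 2.25 FPKM), XLOC_026428 (2.36 and 2.11 FPKM), XLOC_026426 (1.79 and 2.55 FPKM) and XLOC_026431 (2.21 and 1.85 FPKM). Log2 ratios in this run went from −0.39 to 0.35, and no member passed.

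The next run, of 9 members, lies within the locus of Paip2 on chromosome 18 (28397280 to 28415950). Paip2 encodes a protein that binds poly(A)-binding protein and represses translation, and its own row stood at 38.8 in WT and 37.6 FPKM in KO cells. The 8 highest unnamed rows there were XLOC_011660 (6.14 and 7.94 FPKM), XLOC_011656 (4.76 and 6.33 FPKM), XLOC_011662 (5.60 and 4.11 FPKM), XLOC_011664 (4.72 and 4.59 FPKM), XLOC_011659 (4.57 and 4.59 FPKM), XLOC_011663 (4.35 and 3.498 FPKM), XLOC_011658 (3.98 and 3.26 FPKM) and XLOC_011657 (2.69 and 2.44 FPKM). Each lay far below the gene, 6 of all 9 were lower in KO cells, and none passed.

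The largest run of separate loci held 8 members in 13310 bp of chromosome 11 (38867271 to 38880581). From the first to the last position they were XLOC_005819 (3.62 in WT and 3.48 FPKM in KO cells), XLOC_005820 (3.81 and 2.59 FPKM), XLOC_005821 (4.50 and 3.62 FPKM), XLOC_005597 (5.63 and 5.26 FPKM), XLOC_005441 (5.85 and 5.85 FPKM), XLOC_005823 (1.39 and 1.05 FPKM), XLOC_005824 (2.73 and 2.43 FPKM) and XLOC_005825 (1.37 and 1.40 FPKM). Of the 8, 7 were lower in KO cells, with log2 ratios from −0.42 to 0.02, and none passed. It was named as the third of the largest runs because it has the most separate loci among runs of its size, a choice made after its values were seen.

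A run of 6 separate loci on chromosome 13 (80578591 to 80614870) held an abundant member. XLOC_007311 (80587201 to 80588073) stood at 165 in WT and 190 FPKM in KO cells, while its 5 neighbours had means from 1.61 FPKM (XLOC_007611) to 15.5 FPKM (XLOC_007313). XLOC_007313 was lower in KO cells (17.8 and 13.3 FPKM) and XLOC_007611 higher (1.08 and 2.13 FPKM), and none of the 6 passed.

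Just before Cdkn1a, the gene of the cell cycle inhibitor p21, lay a run of 3 members with lower values in KO cells. XLOC_015016 (chromosome 20, 6345106 to 6345574) stood at 2.17 in WT and 0.822 FPKM in KO cells, XLOC_015017 (6345647 to 6347350) at 1.51 and 0.815 FPKM, and XLOC_015018 (6347689 to 6348244) at 1.65 and 0.547 FPKM. The KO values of all 3 were under 1 FPKM, so these members reached the level limit only through their WT values. None passed, at q = 0.523, 0.144 and 0.450 by the authors' deposited table. Cdkn1a begins at 6351475 in the plus strand series and its main row stood at 57.9 and 48.1 FPKM, for which the authors' deposited table gives q = 0.608. This run and XLOC_014337 were singled out after their values were seen.

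**Figure D5:**
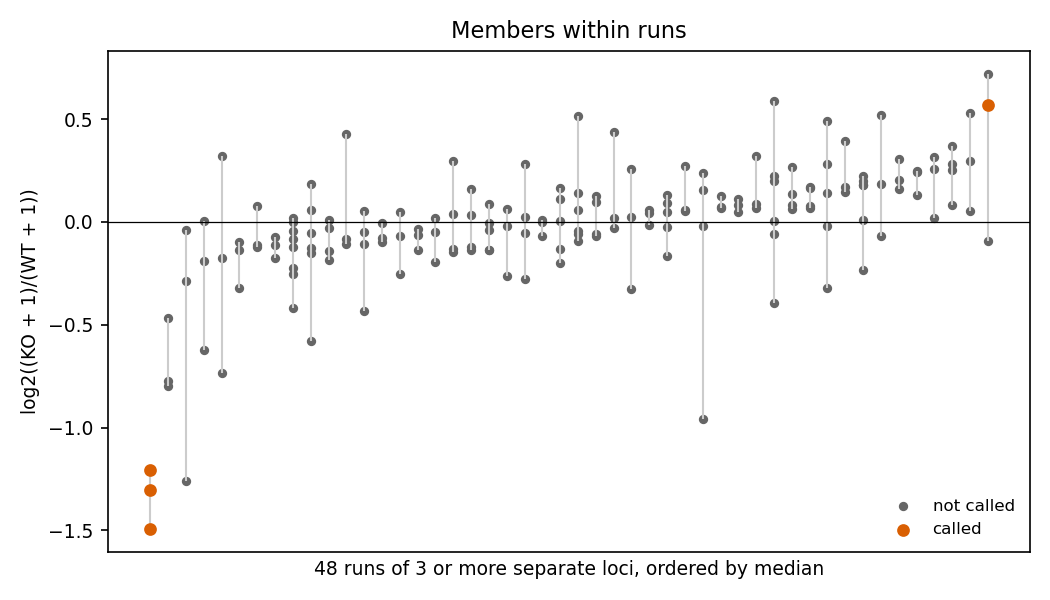
Log2 ratio of KO over WT with a pseudocount of 1 (y axis) for the 179 members of the 48 runs of at least 3 separate loci, 1 vertical line per run, ordered by the run's median (x axis). Orange points are members called in the authors' deposited table; the chromosome 2 run is at the left end with all 3 members between −1.49 and −1.21, the chromosome 7 run at the right end.

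Members lay beside genes about as often as apart from them. A named row was overlapped by 398 members, 557 lay within 5 kb of one without overlap, and 962 were farther away or had none on their chromosome or scaffold. For the 1272 members that were alone at their locus and had a named row of the first or second series on the chromosome, the median distance to it was 16322 bp. It was within 5 kb for 451 and over 50 kb for 434. Members over 50 kb away had higher median levels, 4.40 FPKM on the 3′ side and 3.83 FPKM on the 5′ side of the gene, than those within 2 kb, 2.18 and 1.59 FPKM. The far members also had shorter median loci, 611.5 and 636 bp beside 1045 and 970 bp within 2 kb. The part of length in the levels was not tested.

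Members close to a gene were compared with it by side, as a description without a test. Within 2 kb of the 3′ end lay 119 members, whose median level was 0.307 of that of the gene, and within 2 kb of the 5′ end lay 199, at 0.111 of the gene. Only genes with a mean of at least 1 FPKM enter these ratios and the correlations below. On the 3′ side 64.3% of 115 members had the same direction as the gene, with a Pearson correlation of the log2 ratios of 0.57 across loci, and on the 5′ side 52.6% of 194, with 0.22. Without the members beside Zmat3 and Olfml3 the correlation on the 3′ side was 0.35 across 113. In the distance classes beyond 2 kb it lay between 0.03 and 0.33, with the highest value on the 5′ side from 5 to 50 kb. The share with the same direction on the 3′ and 5′ sides was 54.4% and 62.7% from 2 to 5 kb. It was 48.7% and 62.4% from 5 to 50 kb, and 53.2% and 49.3% over 50 kb. Shares near that of the close 3′ side were therefore also found farther away on the 5′ side. Member and gene come from the same pooled libraries and some genes stand beside several members, so these correlations are descriptions across loci.

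Members were found on every chromosome, from 5.26% of the tested rows of chromosome 20 to 10.7% of chromosome 13, with 10.3% on chromosome X. Scaffolds held 23 members, 46.9% of their tested rows. On chromosome 3, the 82 members from 120 Mb onward had a median log2 ratio of 0.11 and 63.4% were higher in KO cells, whereas the 80 before that point had a median of −0.06 and 42.5% were higher. None of these 162 was called. On chromosome 19, the 7 members before 20 Mb had a median of 0.36 and the 43 from there on one of 0.02. The position of both boundaries was chosen with values of the named rows of these chromosomes known.

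Near the miR-203 locus on chromosome 6, no member lay close to Kif26a, the gene used here to mark its place (main row at 6.98 in WT and 8.03 FPKM in KO cells). The nearest member before it, XLOC_021707, lies 210426 bp away and stood at 2.19 and 1.59 FPKM, and the nearest after it, XLOC_020753, lies 391197 bp away and stood at 3.11 and 2.77 FPKM. Neither passed, at q = 0.997 for each by the authors' deposited table. Kif26a also has a short row in the third series, XLOC_021711, at 1.39 in WT and 2.65 FPKM in KO cells. That row did not pass, at q = 0.829 by the authors' deposited table.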

How the data were processed

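RNA of 3 WT and 3 miR-203 KO samples was sequenced. Reads were processed on rn6 with TopHat (0.9, so listed), Cufflinks (2.2.1) and Cuffdiff (2.2.1.3), per the submitters' processing notes, with options and gene annotation not given in the sources used here. Per the file headers, the authors deposited 1 FPKM value per group, a log2 fold, a test score, a p-value and a q-value, all as text with decimal commas. FPKM keeps no read depth, so no precision per value can be given. Values per sample were not analysed here, so the limma fit foreseen was not run, no test was made and a member counts as called at the authors' q under 0.05.

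Ratios are log2((KO + 1)/(WT + 1)) from the deposited FPKM values, which understates changes of low loci. The side of a neighbouring gene follows from its series in the row order, and distances run from locus end to locus start. Where a gene shares its interval with other rows, the edge of that interval may belong to another of them. Scripts (Python 3.11.15, pandas 2.3.3, NumPy 2.4.6, matplotlib 3.10.9) were tested on simulated data. Named members are the 10 highest, the 10 largest calls in each direction, the 5 longest, the 3 largest runs with up to 8 members each, the 3 rows nearest each limit on each side, and the named neighbours of these; the other named members and genes were chosen after their values were seen. The members, lists and rules were chosen with earlier results of these data known.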

Additional observations from a re-analysis of the deposited data

How the results depend on the processing

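Chosen after seeing the data were the restrictions to members alone at their locus, to the third series, to runs of separate loci and to members outside the chromosome 2 run. The 19 calls became 10 at q under 0.01, 5 with a 2-fold ratio on the scale with a pseudocount of 1 as well, 3 with q recomputed over rows of at least 5 FPKM (fewer rows tested), 8 in the third series, and 30, 12 and 1 with a minimum mean of 0, 2 and 5 FPKM. They were 16 to 20 under the other settings. The median log2 ratio of 0.0181 became −0.00874 with quantile normalization, 0.00615 after centring on named rows, 0.0372 from 1000 bp, 0.0456 without and −0.00622 with a minimum mean of 5 FPKM, and 0.00661 for members alone at their locus. The 38 members at least 2-fold apart became 130, 72 and 0 with pseudocounts of 0.1, 0.5 and 5, 160 by the log2 fold of the authors' deposited table, 75 from 200 bp, 14 and 1 with a minimum mean of 2 and 5 FPKM, and 13 for members alone. The 458 members in runs became 141 with a minimum mean of 2 FPKM and 179 in runs of separate loci, and the 955 overlapping or within 5 kb of named rows became 444 with a minimum mean of 2 FPKM. The causes were not tested. All 76 ratios of the called members under other pseudocounts and quantile normalization kept their direction. No paired analysis was possible because only pooled values of each group were analysed, and the fit per sample, leaving out each replicate and the replicate block were therefore not run.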
